A study of Mus musculus with 6 samples.

Results

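The genes described here are 10 members of bone morphogenetic protein (BMP) signalling and its target family, the Id genes, taken by symbol from a table of 17912 genes: the ligand gene Bmp4, the receptor gene Bmpr1a, the signal transducer genes Smad1 and Smad5, the inhibitor genes Smad6 and Smad7, and Id1, Id2, Id3 and Id4. Poly(A) RNA was sequenced from 3 clones with a short hairpin RNA against EXOSC2 (labelled EXOSC2_KD; clones 5, 6 and 7) and from 3 controls labelled WT (replicates 1, 2 and 3), all of which carry the label of mouse embryonic stem cells (ESCs), a cultured form of the pluripotent embryo. EXOSC2 belongs to the RNA exosome, a complex that trims and destroys RNA starting at the 3′ end. The labels give no age, strain, sex or culture medium. They do not say whether the controls carried a hairpin or had separate cultures, or whether clones and controls share a parental line. The p-values therefore reflect the spread among these 6 libraries alone. By the titles it is a spread between clones in the shEXOSC2 group, and among the controls it may be technical.

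BMPs are secreted proteins that bind a pair of type I and type II serine/threonine kinase receptors. The type I receptor phosphorylates SMAD1, SMAD5 and SMAD9, which enter the nucleus with SMAD4 and switch on target genes, first among them the Id genes and the feedback inhibitors SMAD6 and SMAD7. ID proteins hold a helix-loop-helix domain but no DNA-binding region, so they trap E proteins and other basic helix-loop-helix (HLH) factors, and in mouse ESCs cultured with leukaemia inhibitory factor this arm is known for holding back neural differentiation.

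Each shEXOSC2 library is a single clone by its title. Reads recovered from the values and summed over the 17912 genes numbered 24268430 to 26494985 in the clones and 21107761 to 24633836 in the controls. Values are scaled counts, that is, reads per gene divided by a library's size factor, and log2 fold changes are clones over controls of log2(scaled count + 1), with their SE. Exosc2 itself measured 1138, 997 and 981 scaled counts in clones 5, 6 and 7, against 2457, 2473 and 1954 in control replicates 1, 2 and 3 (log2 fold change -1.14 ± 0.13, limma adjusted p = 5.11e-05). The ESC label held only in part for the marker genes of the clones. Of 10 pluripotency markers, 8 were lower and 2 (Pou5f1 and Klf4) were higher. Klf4 averaged 14169 ± 2032 scaled counts in the clones and 2415 ± 82.0 in the controls. Among the lower ones, Sox2 still averaged 2805 ± 787 in the clones, against 11834 ± 2168 in the controls. Over all clones there was no read of Zfp42 or Utf1 and there were 2 reads of Nanog. The summed level of that list was 103362 to 113410 in the clones and 107110 to 124464 in the controls. Most of the clone sum was Pou5f1, which averaged 91114 ± 2227 in the clones and 21045 ± 4721 in the controls. Of 11 tested fibroblast and feeder-cell markers, 10 were higher and 1 lower in the clones, and the summed level of that list was 53268 to 69311 in the clones, against 10009 to 11451 in the controls. Epithelial markers were 5 higher and 4 lower of 9 (summed 29576 to 32270.0 in clones, 24605 to 39246 in controls, Krt6a without a read in controls). The largest part of that sum was Ehf in the clones (16997 ± 810) and Cdh1 in the controls (15794 ± 3163). Of 6 tested trophoblast markers 1 was higher and 4 lower (summed 1215 to 1446 in clones, 4028 to 5386 in controls, Cdx2 without a read in clones), and of 4 tested endothelial and blood markers 1 was higher and 2 lower (summed 445 to 527 in clones, 1915 to 2348 in controls). Control replicate 3 stood apart from the other controls in a few of these genes, such as the trophoblast gene Hand1 at 476 scaled counts, against 71.0 and 100.4 in control replicates 1 and 2. Without that library the same number of the 10 genes was called in each direction, 3 higher and 4 lower. Beside the marker counts above, 35.2% of all genes tested were called higher and 38.3% lower with all 6 libraries. The part of these marker differences in the results below was not tested. In bulk RNA, fewer cells of a type and less RNA per cell cannot be told apart.

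All 10 genes were in the table and all passed the filter of a mean of at least 10 scaled counts. Id1, Id3 and Smad5 were higher in the clones, Bmp4, Smad7, Id2 and Id4 were lower, and Bmpr1a, Smad1 and Smad6 were not called at an adjusted p under 0.05 in limma. These 7 calls of 10 (70.0%) stand beside 73.5% of the 15179 genes tested that were called in the same comparison, 35.2% higher and 38.3% lower, so that the share called is near the background. For the same 7 genes the clones and the controls did not overlap, as was so for 77.3% of all genes tested (36.7% higher and 40.6% lower). The median log2 fold change of the 10 was -0.20, and that of all genes tested was -0.07. What follows is therefore about the size and direction of each gene's difference and not about how many genes differed.

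**Figure D1:**
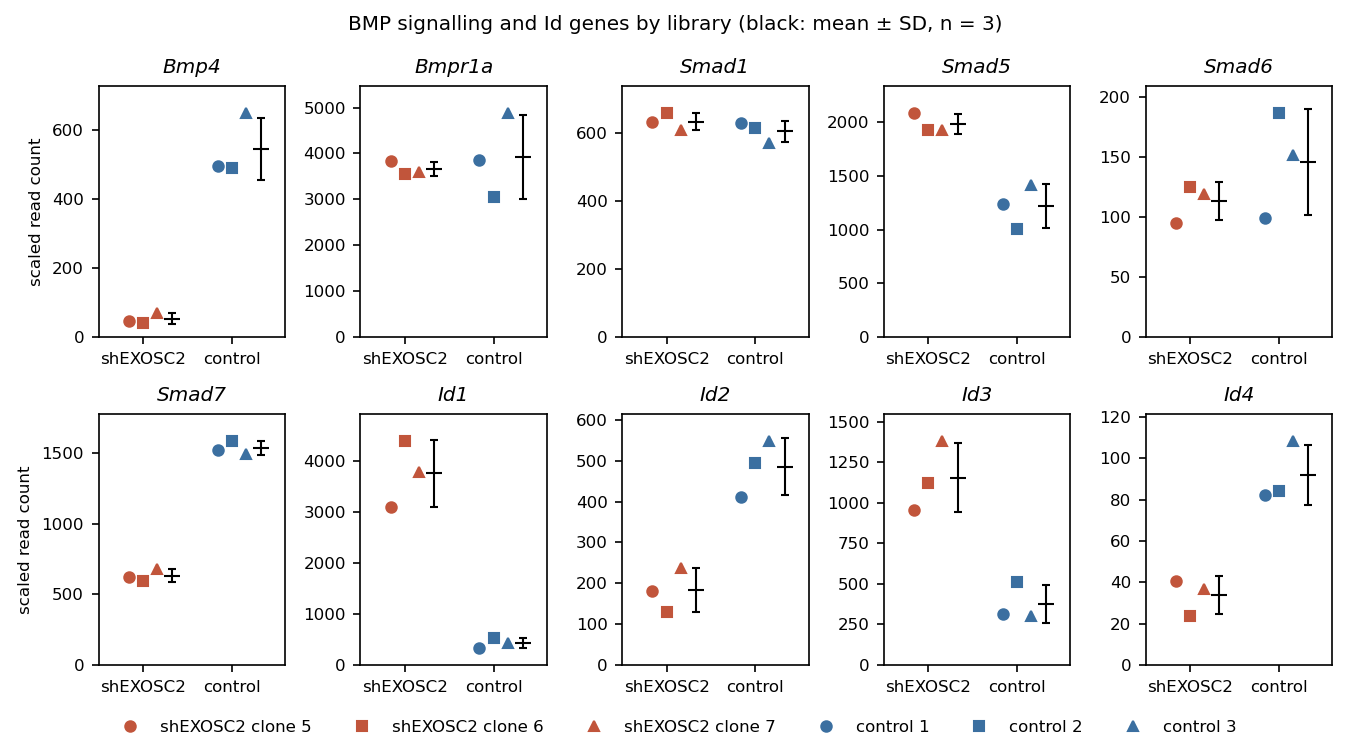
Scaled read counts of the 10 genes in each library, on linear axes that start at 0, with the 3 shEXOSC2 clones at the left and the 3 controls at the right of each panel and the mean ± SD (n = 3) in black. The clones lie above the controls for Id1, Id3 and Smad5, lie below them for Bmp4, Smad7, Id2 and Id4, and overlap them for Bmpr1a, Smad1 and Smad6.

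Bmp4, the ligand gene of the group, was about an order of magnitude lower in the clones. It measured 45.8, 42.1 and 71.0 scaled counts in clones 5, 6 and 7, against 496, 490.3 and 649 in control replicates 1, 2 and 3. Every clone lay far below every control, with clone 7 the highest clone and control replicate 3 the highest control. The means were 53.0 ± 15.7 in the clones and 545 ± 89.9 in the controls (SD, n = 3 each), a level 10.3-fold lower in the clones, with a log2 fold change of -3.36 ± 0.24 (SE, limma adjusted p = 3.08e-06). Of all genes tested, Bmp4 stood at the 10.1 percentile of log2 fold change, counted from the lowest. The gene (ENSMUSG00000021835.14) spans chromosome 14, positions 46383520 to 46390669 in GRCm38, on the minus strand, and its exons share 89 bases with an opposite-strand gene, Gm15217. Its promoter is shown because Bmp4 and Id1 had the largest differences of the 10 genes and the promoter table holds Bmp4. The stretch of 250 bases before its RefSeq start (chr14:46390670-46390919, minus strand, GRCm38.p6, sequence from RefSeq) held neither the GC-rich SMAD1/5 element GGCGCC, nor the palindromic SMAD box GTCTAGAC, nor a CCAAT box on either strand, so no base is in capitals.
Bmp4: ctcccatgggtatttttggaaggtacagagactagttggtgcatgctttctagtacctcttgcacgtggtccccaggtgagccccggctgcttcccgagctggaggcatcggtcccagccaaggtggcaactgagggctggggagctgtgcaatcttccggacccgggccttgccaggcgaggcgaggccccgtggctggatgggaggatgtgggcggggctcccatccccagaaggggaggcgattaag

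The other BMP ligand genes moved in both directions. Of 14 in the list, Bmp4 included, 7 were tested and the other 7 were not found by symbol among the 17912 genes with values. Beside 38.3% lower and 35.2% higher of all genes, 4 of those tested fell, Bmp4 included, 2 rose and Bmp8a was not called. Their median log2 fold change was -2.58 (-1.12 with quantile normalization), against -0.07 over all genes. Bmp7, a ligand of kidney and eye development, had 2 reads over the clones, both in clone 7, and 1320 over the controls. Its controls averaged 447 ± 85.7 scaled counts, a level 726-fold above the clones with a 95% counting interval of 201 to 5995. Bmp8b, a ligand with roles in the germline and in brown fat, averaged 4.17 ± 1.98 in the clones and 111 ± 51.7 in the controls (log2 fold change -4.41 ± 0.40, limma adjusted p = 1.26e-05). Gdf5, a ligand of joint formation, ran the other way, with 114 ± 6.64 in the clones and 9.32 ± 6.07 in the controls (3.64 ± 0.41, adjusted p = 4.75e-05). Bmp6 and Bmp2, named after their values were seen, completed the ligands that were called: Bmp6 averaged 110.5 ± 22.9 in the clones and 39.9 ± 0.945 in the controls, and Bmp2 averaged 4.89 ± 1.96 in the clones and 35.0 ± 15.0 in the controls. Summed over the 7 ligand genes, the level was 265 to 332 scaled counts in the clones and 1009 to 1447 in the controls.

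Bmpr1a encodes a type I BMP receptor (ALK3) and did not differ beyond its spread. It measured 3834, 3542 and 3597 scaled counts in clones 5, 6 and 7, against 3848, 3050.0 and 4882 in control replicates 1, 2 and 3. The clones lay inside the range of the controls, whose spread was wider: 3657 ± 155 in the clones and 3927 ± 919 in the controls. The log2 fold change was -0.08 ± 0.16 (limma adjusted p = 0.681), and it was 0.094 without control replicate 3. The gene lies on chromosome 14, positions 34410734 to 34503341, where the median log2 fold change of 491 genes was -0.57. With chromosome medians subtracted its log2 fold change was 0.50 (adjusted p = 0.0104). Exons of Bmpr1a share 290 bases with an opposite-strand transcript, Gm17110.

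The receptors around Bmpr1a moved in both directions. Of 12 receptor and co-receptor genes tested, 5 rose, 4 fell and 3 were not called, beside 35.2% higher and 38.3% lower of all genes. The median log2 fold change of the 12 was 0.24, against -0.07 over all genes. That median was 0.035 without control replicate 2, 0.16 without control replicate 1 and 0.51 without control replicate 3, and 0.99 over the 9 genes with a mean of at least 50. Acvr1, the type I receptor ALK2, measured 1754, 1573 and 1715 scaled counts in clones 5, 6 and 7, against 287, 228 and 292 in control replicates 1, 2 and 3. All clones were above all controls, by 2.65 ± 0.14 on the log2 scale (limma adjusted p = 5.06e-07). Eng encodes endoglin, a co-receptor best known from endothelial cells, and measured 3497, 4355 and 4055 in clones 5, 6 and 7, against 361, 521 and 419 in control replicates 1, 2 and 3. Its log2 fold change was 3.20 ± 0.16 (adjusted p = 3.31e-07). Of the endothelial and blood markers in the same libraries, Tek was higher (390.2 ± 42.9 scaled counts in the clones, 71.0 ± 21.1 in the controls), Pecam1 was lower (11.1 ± 2.20 in the clones, 1875 ± 176 in the controls) and Cd34 was lower (25.5 ± 5.54 in the clones, 58.6 ± 20.7 in the controls). Cdh5 was not called, and Kdr and Ptprc were below the filter. In the same libraries, 10 of 11 tested fibroblast and feeder-cell markers were higher in the clones and 1 was lower. The part of either group of cells in the Eng difference was not tested. Hfe2, which encodes the BMP co-receptor hemojuvelin of iron metabolism, had no read in any clone and 68.6 ± 3.71 scaled counts in the controls. Against a floor of 3 reads per library it was at least 23.3-fold lower in the clones. Bmpr2, the main type II BMP receptor gene, was named after its values were seen: it averaged 2219.5 ± 223 in the clones and 1099 ± 383 in the controls (1.07 ± 0.24, adjusted p = 0.00291).

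Smad1 and Smad5 encode closely related SMADs that BMP receptors phosphorylate, and of the pair Smad5 rose while Smad1 was not called. Smad5 measured 2089, 1934 and 1926 scaled counts in clones 5, 6 and 7, against 1244, 1009 and 1414 in control replicates 1, 2 and 3. All clones were above all controls, with means of 1983 ± 92.0 in the clones and 1222 ± 204 in the controls and a log2 fold change of 0.71 ± 0.14 (limma adjusted p = 0.00139). Smad1 measured 632, 658 and 607 in clones 5, 6 and 7, against 629, 612 and 569 in control replicates 1, 2 and 3. These groups overlapped, and the log2 fold change of 0.07 ± 0.12 was not called (adjusted p = 0.624). Smad1 lies on chromosome 8 (positions 79338395 to 79399518), where the median of 800 genes was -0.49, and with chromosome medians subtracted its log2 fold change was 0.55 (adjusted p = 0.00194). Smad5 lies on chromosome 13 (positions 56703010 to 56742377), where the median of 536 genes was -0.26. Exons of Smad5 share 100 bases with a transcript of the same strand, Gm27301. Per kilobase of exon, the Smad5 level was 2.79, 2.48 and 2.68 times that of Smad1 in clones 5, 6 and 7, and 1.67, 1.39 and 2.10 times in control replicates 1, 2 and 3. The ratio was thus higher in every clone than in any control.

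Of the other SMADs of this step, Smad4, the common partner of all receptor-regulated SMADs, rose and Smad9 was not called. Smad4 measured 2640.2, 2463 and 2472 scaled counts in clones 5, 6 and 7, against 1693, 1624 and 1799.9 in control replicates 1, 2 and 3 (log2 fold change 0.57 ± 0.10, limma adjusted p = 0.000673). Smad9 was low in both groups, with 28.6 ± 8.30 in the clones and 20.4 ± 9.54 in the controls (0.52 ± 0.39, adjusted p = 0.253). With quantile normalization its value was 1.87 (adjusted p = 0.00356). Of the 4 SMAD genes of this list, 2 rose and none fell, beside 35.2% higher and 38.3% lower of all genes. The median of the 4 was 0.54.

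The inhibitory SMAD genes are themselves BMP targets, and of the pair Smad7 fell while Smad6 was not called. Smad7, which blocks both BMP and TGF-beta receptors, measured 624, 594 and 679 scaled counts in clones 5, 6 and 7, against 1519.9, 1587 and 1491 in control replicates 1, 2 and 3. The libraries of each group lay close together and far from the other group, and the log2 fold change was -1.28 ± 0.11 (limma adjusted p = 8.55e-06). Smad6, which acts mainly on the BMP arm, measured 95.5, 125 and 119 in clones 5, 6 and 7, against 99.4, 187 and 152 in control replicates 1, 2 and 3. The groups overlapped because control replicate 1 lay below clones 6 and 7, and the log2 fold change of -0.33 ± 0.26 had an adjusted p of 0.291. It was -0.58 without control replicate 1 (adjusted p = 0.0600) and -0.13 without control replicate 2, so the size of this difference rests on single controls. Smad6 lies on chromosome 9 (positions 63953076 to 64022059) and Smad7 on chromosome 18 (positions 75367529 to 75395935), where all genes had medians of -0.13 and -0.15.

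Set against Smad1 and Smad5, the summed level of Smad6 and Smad7 was lower in the clones. Most of that sum was Smad7, at 140 of 175 per kilobase of exon in the clones and 339 of 384 in the controls. Smad6 alone was not called, and of Smad1 and Smad5 only Smad5 was called, as higher. Per kilobase of exon, Smad6 and Smad7 together were 0.439, 0.466 and 0.525 times the sum of Smad1 and Smad5 in clones 5, 6 and 7. In control replicates 1, 2 and 3 the ratio was 1.37, 1.75 and 1.34. The means of this ratio were 0.477 ± 0.0443 in the clones and 1.49 ± 0.229 in the controls, and the groups did not overlap.

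Other intracellular inhibitors moved in both directions. Of 13 tested, Smad6 and Smad7 included, 7 rose and 3 fell, beside 35.2% higher and 38.3% lower of all genes. The median log2 fold change of the 13 was 0.40 (0.22 with quantile normalization), against -0.07 over all genes. Ski and Ppm1a, named after their values were seen, fell along with Smad7. Ski, a SMAD corepressor gene, averaged 1994 ± 132 scaled counts in the clones and 3056 ± 245 in the controls (log2 fold change -0.62 ± 0.11, limma adjusted p = 0.000703). Ppm1a, which encodes a SMAD phosphatase, averaged 2444 ± 95.03 in the clones and 2936 ± 137 in the controls (-0.26 ± 0.09, adjusted p = 0.0308). Smurf1, a ubiquitin ligase that targets BMP-responsive SMADs, measured 7452, 7595 and 8320.3 scaled counts in clones 5, 6 and 7, against 1039, 1104 and 1260.5 in control replicates 1, 2 and 3. Every clone was above every control, by 2.78 ± 0.11 on the log2 scale (limma adjusted p = 1.2e-07). Tob1 and Tob2, which encode antiproliferative proteins that bind SMADs and the CCR4-NOT deadenylase, had log2 fold changes of 1.34 ± 0.12 and 1.11 ± 0.14. Tob1 averaged 1800.4 ± 19.9 in the clones and 714 ± 76.3 in the controls, and Tob2 averaged 1106 ± 109 in the clones and 511 ± 63.0 in the controls.

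Outside the cell, antagonists moved both ways. Of 13 tested antagonist and decoy genes, 4 rose, 3 fell and 6 were not called, beside 35.2% higher and 38.3% lower of all genes. Their median log2 fold change was 0.06, -0.01 with chromosome medians subtracted and 0.67 with quantile normalization, against -0.07 over all genes. It lay between 0.031 and 0.18 when a single library was left out. Fstl1, a secreted glycoprotein that can bind BMP4, averaged 27203 ± 808 scaled counts in the clones and 4150.4 ± 681 in the controls (log2 fold change 2.72 ± 0.13, limma adjusted p = 2.57e-07). Chrdl1, a chordin-like BMP antagonist, measured 154, 108 and 91.3 in clones 5, 6 and 7, against 15.1, 7.56 and 2.01 in control replicates 1, 2 and 3. All clones were above all controls, with a log2 fold change of 3.96 ± 0.56, and 3.30 without control replicate 3. Bambi, a pseudoreceptor without a kinase domain and itself a BMP target, averaged 24.1 ± 5.23 in the clones and 223 ± 27.4 in the controls (-3.18 ± 0.24, adjusted p = 4.45e-06).

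The Id genes split into a pair that rose and a pair that fell. Id1 measured 3089.9, 4397 and 3789 scaled counts in clones 5, 6 and 7, against 337, 521 and 423 in control replicates 1, 2 and 3. Every clone lay far above every control, and means of 3759 ± 654 in the clones and 427 ± 91.8 in the controls gave a level 8.81-fold higher in the clones. The log2 fold change was 3.14 ± 0.19 (limma adjusted p = 1.01e-06), at the 95.2 percentile of all genes tested. Id3 measured 959, 1124 and 1384 in clones 5, 6 and 7, against 314, 511 and 299 in control replicates 1, 2 and 3. Its groups were apart too, by less than those of Id1, with a log2 fold change of 1.65 ± 0.23 (adjusted p = 0.000174) and a level 3.08-fold higher in the clones. Id1 lies on chromosome 2 (positions 152736251 to 152737410) and Id3 on chromosome 4 (positions 136143497 to 136145755), where all genes had medians of -0.05 and -0.29.

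Id2 and Id4 ran in the other direction by nearly the same fold. Id2 measured 181, 129 and 238 scaled counts in clones 5, 6 and 7, against 411, 496 and 549 in control replicates 1, 2 and 3. The highest clone, clone 7, was below the lowest control, and the log2 fold change was -1.44 ± 0.24 (limma adjusted p = 0.000530). Id4 was the lowest of the family, with 40.8, 23.6 and 36.9 in clones 5, 6 and 7, against 82.4, 84.2 and 108 in control replicates 1, 2 and 3. No clone reached the controls, and the log2 fold change was -1.44 ± 0.28 (adjusted p = 0.00140). These values rest on 41, 23 and 40 reads in clones 5, 6 and 7, and with quantile normalization the log2 fold change was -0.69 (adjusted p = 0.0360). Id2 lies on chromosome 12 (positions 25093799 to 25097140) and Id4 on chromosome 13 (positions 48261228 to 48266026), where all genes had medians of 0.00 and -0.26. The exons of Id4 share 82 and 171 bases with opposite-strand transcripts A330033J07Rik and Gm49291, and the sources used here do not give whether counting used the strand.

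The stretches before the RefSeq starts of Id2 and Id4 are shown because these genes fell together while Id1 and Id3 rose. Of the 10 genes, 8 matched the RefSeq promoter table by symbol, and Id1 and Smad7 did not. In the 250 bases before the RefSeq start, Id2 and Id4 each held a GGCGCC, at 231 and 148 bases before the start, and Id3 held none. It also occurred before Bmpr1a, which was not called, and in 1 of 3 windows of Smad5, which rose, but not before Bmp4, Smad1 or Smad6. This motif was present in 9.59% of 32851 mouse promoter windows of that length. CCAAT, read on both strands, occurred 3 times before Id2, 2 times before Id4 and not before Id3. It was also found before Bmpr1a and Smad1 and in 2 of 3 Smad5 windows, and in 33.8% of all windows. GTCTAGAC occurred before none of the 8 genes, and in 0.167% of all windows. A match is a description of the sequence and not a site of binding. For Id2 the printed stretch stops where GENCODE places an exon, so its CCAAT boxes fall outside it (chr12:25096254-25096342, minus strand, GRCm38.p6). That stretch, with its GGCGCC, lies inside the Id2 gene as GENCODE gives it (25093799 to 25097140), downstream of the GENCODE start. The whole window of Id3 lies in an exon that GENCODE annotates. The Id2 and Id3 windows are thus unlike that of Id4, which lies before its gene, and their motifs are not compared at like places. GENCODE exons also cut into the windows of Bmpr1a and Smad1, leaving 109 and 160 bases before them. For the Smad5 windows, 250, 208 and 0 bases were left. The CCAAT of Bmpr1a (99 bases before the start) and of Smad1 (57), and the GGCGCC of Smad5 (19), lie past those stretches. The Id4 window is chr13:48260866-48261115 on the plus strand of the same build. Capitals mark GGCGCC and the CCAAT box, which reads ATTGG where it lies on the other strand, and no motif overlapped another.
Id2: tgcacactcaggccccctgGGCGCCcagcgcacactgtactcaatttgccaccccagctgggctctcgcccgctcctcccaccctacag
Id4: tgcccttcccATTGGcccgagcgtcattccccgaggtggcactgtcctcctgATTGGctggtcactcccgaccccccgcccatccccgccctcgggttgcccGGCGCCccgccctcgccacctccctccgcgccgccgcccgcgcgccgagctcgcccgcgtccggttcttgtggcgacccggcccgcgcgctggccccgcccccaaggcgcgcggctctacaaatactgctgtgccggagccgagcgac

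Counted together, Id transcripts were more abundant and less evenly divided in the clones. Per kilobase of exon, the level summed over the 4 Id genes was 3284, 4478 and 4146 in clones 5, 6 and 7, against 656, 959 and 785 in control replicates 1, 2 and 3. Id1 held 81.1, 84.7 and 78.8% of that sum in clones 5, 6 and 7, against 44.3, 46.8 and 46.4% in control replicates 1, 2 and 3. Id3 held 16.3 ± 2.31% in the clones and 25.9 ± 4.29% in the controls, a smaller share in the clones although its own level was higher there. Id2 held 1.93 ± 0.650% in the clones and 25.2 ± 3.78% in the controls, while its own level was 2.65-fold lower in the clones. Id4 held 0.230 ± 0.0928% in the clones and 3.04 ± 0.680% in the controls, with its own level 2.72-fold lower in the clones. Shares of Id2 and Id4 thus fell by more than their levels, because the sum was larger in the clones. None of these shares overlapped between the groups. The level of Id1 was 35.9, 71.4 and 33.5 times that of Id2 in clones 5, 6 and 7, and 1.72, 2.21 and 1.62 times in control replicates 1, 2 and 3.

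**Figure D2:**
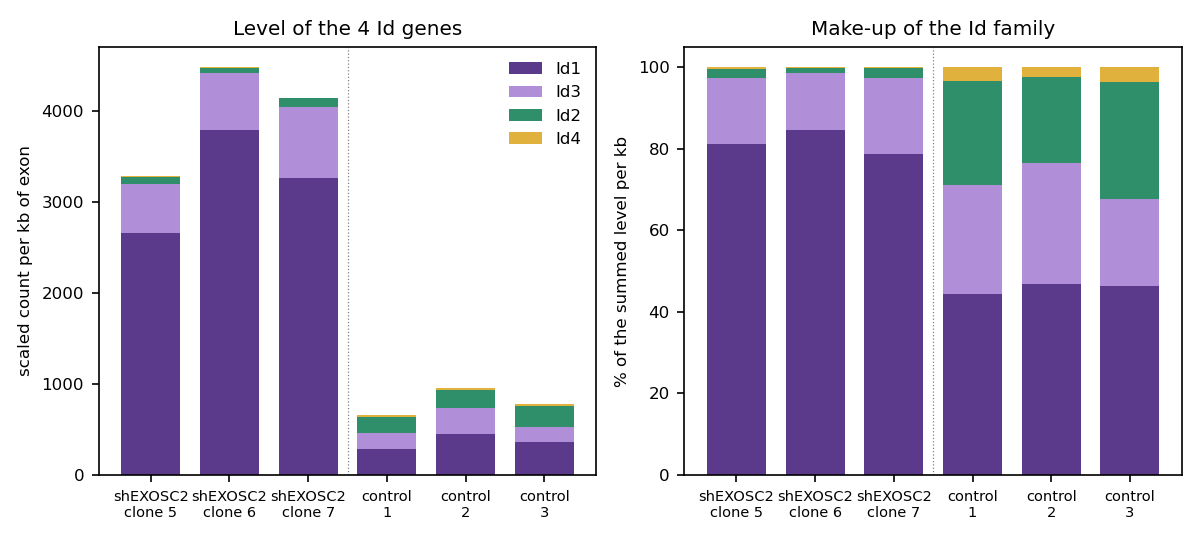
Level of the 4 Id genes per kilobase of exon in each library, as scaled counts (left) and as % of their sum (right), with the shEXOSC2 clones left of the dotted line and the controls right of it. Id1 takes 78.8 to 84.7% of the sum in the clones and 44.3 to 46.8% in the controls. The Id2 band nearly disappears from the shares in the clones, where the Id2 level itself is 2.65-fold lower.

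The HLH factors that ID proteins bind were measured in part. Of 13 in the list, 8 were tested: 2 rose, 4 fell and 2 were not called, beside 35.2% higher and 38.3% lower of all genes. The median log2 fold change of the 8 was -1.27, against -0.07 over all genes. The list median was -0.078 with no filter on low values (9 genes), against -0.14 over all genes, and -0.072 with a mean of at least 50 (6 genes), against 0.02 over all genes, so the contrast depends on the filter. The E protein genes, the main partners of ID proteins, were named after their values were seen. Tcf3 (E2A) averaged 2576 ± 625 scaled counts in the clones and 2802 ± 1214 in the controls, and Tcf12 (HEB) 1146 ± 118 in the clones and 1222 ± 243 in the controls, neither of them called. Tcf4 (E2-2) averaged 2038 ± 112 in the clones and 1101 ± 223 in the controls, with a log2 fold change of 0.91 ± 0.16 (limma adjusted p = 0.000675). Tcf15, an HLH factor of the epiblast, had 1 read in the clones and 889 in the controls, a level 981-fold lower in the clones with a 95% counting interval of 176 to 38742. Neurod1, of neurons, and Tal1, of blood, had no read in any clone, with 48.2 ± 18.3 and 20.3 ± 9.07 scaled counts in the controls. They were at least 16.4-fold and 6.91-fold lower in the clones against a floor of 3 reads per library.

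Other genes known as BMP targets moved in both directions. The list of 18 holds the 4 Id genes, Smad6, Smad7, Smad9, Bambi and Nog as well. Of 17 tested, 5 rose and 10 fell, beside 35.2% higher and 38.3% lower of all genes. The median log2 fold change of the 17 was -1.44, against -0.07 over all genes. Dusp9, an ERK phosphatase gene that BMP induces in mouse ESCs, measured 35.8, 63.7 and 48.9 scaled counts in clones 5, 6 and 7, against 2461, 3200.1 and 4133 in control replicates 1, 2 and 3. Its log2 fold change was -6.02 ± 0.25 (limma adjusted p = 1.62e-07), the lowest among the tested target genes. Tbx3, a T-box factor gene of naive ESCs, averaged 106 ± 20.04 in the clones and 1195 ± 137 in the controls (-3.49 ± 0.18, adjusted p = 4.75e-07). Runx2, the master factor of bone-forming cells, averaged 2366 ± 306 in the clones and 44.8 ± 20.3 in the controls (5.80 ± 0.33, adjusted p = 8.28e-07). Of the marker genes above, 8 for pluripotency fell and 10 for fibroblasts rose in the same libraries, and the part of either in these targets was not tested.

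**Figure D3:**
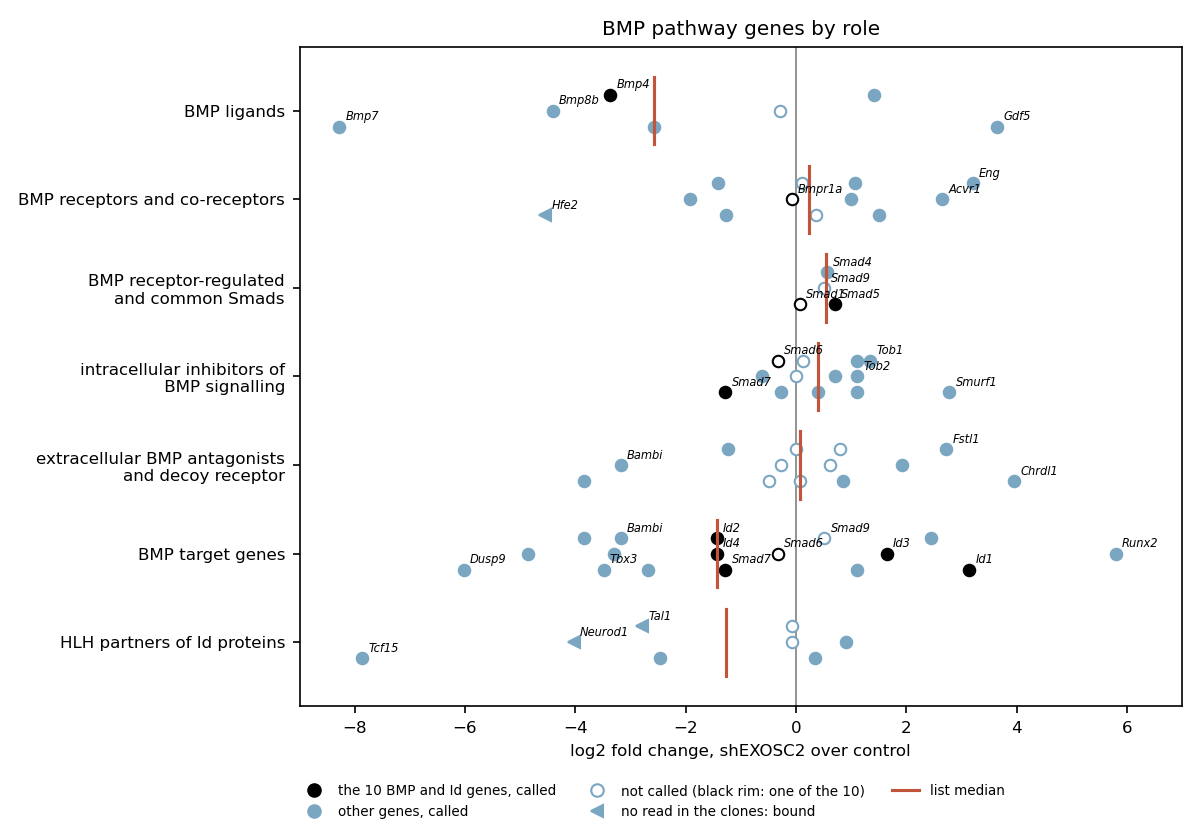
Log2 fold changes, shEXOSC2 over control, of the tested genes of each of 7 BMP pathway lists, with the 10 BMP and Id genes in black, open circles for genes not called and a red line at the list median. Triangles are bounds for Hfe2, Neurod1 and Tal1, which had no read in the clones. The ligand and target lists have medians of -2.58 and -1.44, whereas the SMAD and intracellular inhibitor lists have medians of 0.54 and 0.40.

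Over the 7 lists together, 59 genes that are not among the 10 were tested, of which 24 rose and 21 fell (76.3% called, beside 73.5% of all genes tested), with a median log2 fold change of 0.10. List medians were the same to 2 decimals with genes without a read set at their bound.

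The order of the 10 genes by level differed between the groups. Per kilobase of exon, Id1 stood first in the clones at 3240.2 ± 564, followed by Id3 at 645 ± 119.6 and Bmpr1a at 576 ± 24.5, whose ranges overlapped. Smad5 (267 ± 12.4), Smad7 (140 ± 9.55) and Smad1 (101 ± 4.03) came next, each apart from its neighbour except that Smad1 overlapped Id2 (75.0 ± 22.3). Smad6 (35.3 ± 4.91) and Bmp4 (23.6 ± 7.005) overlapped each other, and Id4 was last at 8.77 ± 2.34. In the controls Bmpr1a stood first at 618 ± 145, apart from Id1 at 368 ± 79.1, which overlapped Smad7 at 339 ± 10.9. Bmp4 (242 ± 40.0), Id3 (209 ± 65.9), Id2 (199 ± 28.6) and Smad5 (165 ± 27.4) formed a run of neighbours whose ranges overlapped. Smad1 (96.4 ± 4.89), Smad6 (45.5 ± 13.7) and Id4 (23.8 ± 3.78) closed the order and were apart from one another. Lengths are those of all annotated exons of a gene, so a gene that uses only some of them is understated.

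Spread within a group differed between the genes. The coefficient of variation over the 3 clones was 29.7% for both Bmp4 and Id2, 26.6% for Id4, 18.5% for Id3 and 17.4% for Id1, above the median of 9.08% over all genes tested. It was 3.997% for Smad1, 4.25% for Bmpr1a, 4.64% for Smad5 and 6.83% for Smad7. Over the controls it was 31.5% for Id3, 30.1% for Smad6 and 23.4% for Bmpr1a, beside a median of 17.3% over all genes, and 3.21% for Smad7. Among the clones, clone 6 had the highest Id1 and the lowest Id2, Id4 and Bmp4, while clone 7 had the highest Id2, Id3 and Bmp4.

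**Figure D4:**
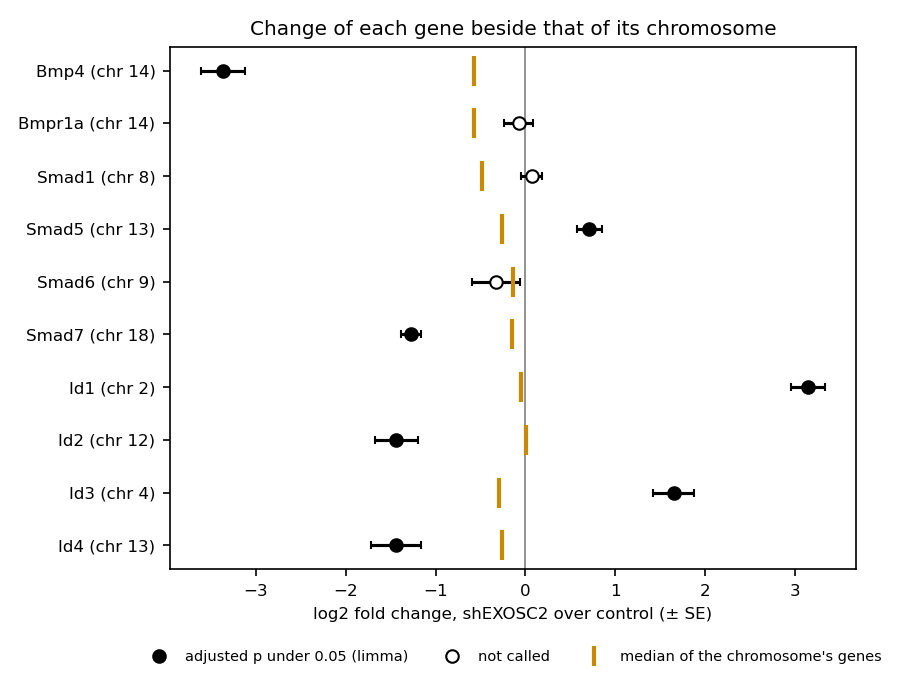
Log2 fold change, shEXOSC2 over control, of each of the 10 genes (± SE, limma) beside the median log2 fold change of all tested genes on its chromosome (orange bar), with open circles for genes not called. Bmpr1a and Smad1 lie near 0 while their chromosomes, 14 and 8, have medians of -0.57 and -0.49.

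Chromosome-wide shifts touched the genes unequally. Medians over the genes of a chromosome ran from -0.60 on chromosome 1 to 0.41 on chromosome 6. With them subtracted, 5 of the 10 genes were called higher, Bmpr1a and Smad1 being the added ones, and the same 4 were called lower. The log2 fold change of Bmp4 was then -2.78, and those of Id1, Id2, Id3 and Id4 were 3.21, -1.45, 1.93 and -1.21.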

How the data were processed

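RNA was measured in 6 libraries (3 shEXOSC2 clones, 3 controls) made, per the labels' protocols, with the TruSeq Stranded mRNA kit (poly(A) selection, 500 ng of input, 8 cycles of amplification). Tools named in the submitters' processing notes are STAR 2.5.0a, with HTSeq 0.5.3, with cutadapt 1.6 and also DESeq 1.22.1; the build is mm10 and no settings are named. The deposited values are a signal: per the file headers and those notes, read counts per gene scaled by DESeq. In each library, dividing by the worth of 1 read gave whole numbers for 100% of values (tolerance 0.001 read), so reads could be recovered. Of 17912 genes, 17860 (99.71%) matched GENCODE M21 (GRCm38, the assembly of mm10) by identifier, which gave positions, chromosomes and exon lengths.

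Groups came from the sample titles. The main test was limma 3.58.1, with a trended eBayes after lmFit, on log2(scaled count + 1) for genes averaging 10 or more over the 6 libraries, with Benjamini-Hochberg adjustment over all 15179 genes tested and a threshold of 0.05. Fold changes are clones over controls on that scale, which understates changes of low genes. Levels are mean ± SD with n = 3 libraries per group. A gene without a read in a group is given a bound, computed with 3 reads in each library as the floor, and one with 1 to 3 reads a ratio with an exact 95% Poisson interval. Both cover counting error only, because PCR copies cannot be told from separate molecules.

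The 10 genes and the 7 pathway lists were chosen with earlier results of these data known. Named genes are the 10, Exosc2 and, from each list, the 3 other tested genes with the smallest p (the SMAD list has 2). Other genes are marked in the text as chosen after their values were seen, apart from marker genes. The alternatives tried were count tests on the recovered reads (DESeq2 1.42.0, edgeR 4.0.16), quantile or TMM scaling, chromosome medians subtracted in each library, robust or untrended eBayes, a filter at a mean of 50 or none, a pseudocount of 5 or 0.5, and each library left out. Promoter sequences are those of RefSeq (GRCm38.p6). The software was Python 3.11.15 (numpy 2.4.6, matplotlib 3.10.9, pandas 2.3.3) with R 4.3.3.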

Additional observations from a re-analysis of the deposited data

How the results depend on the processing

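Over 17 alternatives the number of genes called lay between 9228 and 12553, within 1.5 times the 11158 of the main test, and between 10143 and 11491 when a single library was left out. On recovered reads, edgeR called 11150 and DESeq2 11132. Of the 10 genes, 3 were called higher and 4 lower under each alternative, except that 5 were called higher with chromosome medians subtracted. Bmpr1a then changed direction to 0.50, and Smad1 passed the threshold at 0.55. Bmpr1a ranged from -0.25 to 0.094 when a single library was left out, Smad1 was -0.12 and Smad6 0.025 with quantile normalization, none of them called. In all, 165 of 170 values of the 10 genes kept their direction and their side of the threshold, as did 352 values of the other named genes, with 1 exception, Smad9 with quantile normalization (1.87). No paired analysis was possible because the groups share no replicate numbers. With 3 libraries a group, p-values for low genes such as Id4 and Smad9 rest on few reads.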

Other observations

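The other called BMP target genes, outside the rule for named genes and chosen here after their values were seen, moved in both directions. More of them fell than rose. Msx1 and Msx2, paralogous homeobox genes induced by BMP in limb and facial mesenchyme, moved apart. Msx1 averaged 197 ± 40.3 scaled counts in the clones and 36.6 ± 15.3 in the controls (log2 fold change 2.45 ± 0.31, limma adjusted p = 0.0001). Msx2 averaged 22.4 ± 3.69 in the clones and 157 ± 70.7 in the controls (-2.68 ± 0.33, adjusted p = 7.97e-05). Hey1, a target shared with Notch signalling, averaged 23.8 ± 2.93 in the clones and 246 ± 50.6 in the controls (-3.30 ± 0.24, adjusted p = 3.41e-06). Dlx3 fell further, with 2.87 ± 1.80 in the clones and 109.8 ± 51.7 in the controls (-4.86 ± 0.46, adjusted p = 1.69e-05). Nog, which is also in the antagonist list, had 3 reads over the clones and 74 over the controls. Its level was 24.2-fold lower in the clones, with a counting interval of 8.28 to 117. Atoh8, an HLH gene that BMP induces in liver and endothelium, averaged 68.0 ± 25.1 in the clones and 29.9 ± 2.66 in the controls (1.10 ± 0.30, adjusted p = 0.00964).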
